A study of Mus musculus with 12 samples.

Results

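The proteasome genes of the mouse ventral hippocampus (vHPC) were taken as every gene whose symbol begins with Psm, a letter from a to g and a number. The inducible catalytic genes Psmb8 and Psmb9 and symbols marked as pseudogenes were left out. The rule found 46 of the 17564 genes in the deposited tables and set aside 3 matching symbols (Psmb8, Psmb9 and Psmb6-ps2). Of the 46, 31 code for subunits of the assembled core, base and lid of the proteasome, and 15 for an inducible subunit, assembly chaperones, activators, an inhibitor and 2 further matches (Psme2b and Psmc3ip). Expression had been measured by RNA-seq in 12 libraries, 3 in each of 4 groups. All mice were male with a C57BL/6 background, and both genotypes, WT and BDNF het-Met, were split into a VEH and a CORT group. BDNF het-Met mice are heterozygous for a Met-coding allele of Bdnf, the gene of brain-derived neurotrophic factor. CORT is corticosterone, the main stress steroid of rodents, drunk at 25 mg/l for 6 weeks from 2 months of age. VEH mice drank the vehicle, and all 4 groups received its 1% ethanol. Each library pooled RNA of 2 animals, so no value belongs to a single mouse.

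The tables give no value per library or per group outside the authors' own comparisons, which were not used. The measurement described is therefore the authors' mean expression of each gene in log2 CPM (read counts scaled to the size of the library), which was identical in the WT and the BDNF het-Met table and so is 1 mean for the whole experiment. Whether all 12 libraries entered it is not stated in the sources used here. It has no error and no replicate count, and no effect of CORT or of genotype was computed. For sequencing depth the study gives only an approximate number of reads per sample, not the depth of each library. All statements are descriptions of these mean levels and of the gene sequences behind them, with no test.

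The proteasome degrades proteins tagged with ubiquitin. Its barrel-shaped core is built of outer alpha rings, which form the gate, and inner beta rings, which carry the proteolytic sites. A regulatory particle caps the barrel. The base of this cap unfolds substrates with a ring of ATPases, and its lid removes the ubiquitin chain. In neurons the complex takes part in turnover of synaptic proteins, and glucocorticoids are known to raise its expression in wasting muscle.

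Markers of the main hippocampal cell classes were present. Mean expression was 5.29 to 6.68 log2 CPM for 3 dentate granule cell markers, 5.01 to 7.70 for 3 CA1 markers and 7.87 to 11.4 for 3 neuronal markers. Glial markers were present as well, at 5.76 to 8.21 for astrocytes, 5.18 to 10.5 for oligodendrocytes and 4.17 to 5.89 for microglia. All 3 choroid plexus markers were listed, from 2.84 for Folr1 to 9.44 for Ttr, and none of 3 lymphocyte markers was in the tables. In such bulk tissue fewer cells of a type and less RNA per cell cannot be told apart, and how much each cell type adds to a proteasome gene was not tested.

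All 31 core, base and lid genes lay above the median of all genes, 3.87 log2 CPM, and 26 of the 31 lay above the 75th percentile. The base receptor Adrm1 and the lid subunit Sem1 carry other symbols and are not among the 31. Sem1 was at 4.83 log2 CPM, while Adrm1 was at 3.13, below the median, with 76.4% of its 75-base windows unique to it. Of the other 15 genes, 7 lay above the median of all genes, and 3 above the 75th percentile. The median of protein-coding genes alone was higher, 4.42 log2 CPM, and of the 31 genes Psma3, Psmb3, Psmb5 and Psma5 lay below it. Since long transcripts give more reads, genes are compared per kilobase (kb) below, either of all merged exons or of coding sequence, as log2 CPM minus the log2 of the length. Per kb of exon the all-gene median was 1.96, and the same 31 genes and 11 of the other 15 exceeded it. Psmc5 was highest at 6.35 and Psmc3ip lowest at 0.24.

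**Figure D1:**
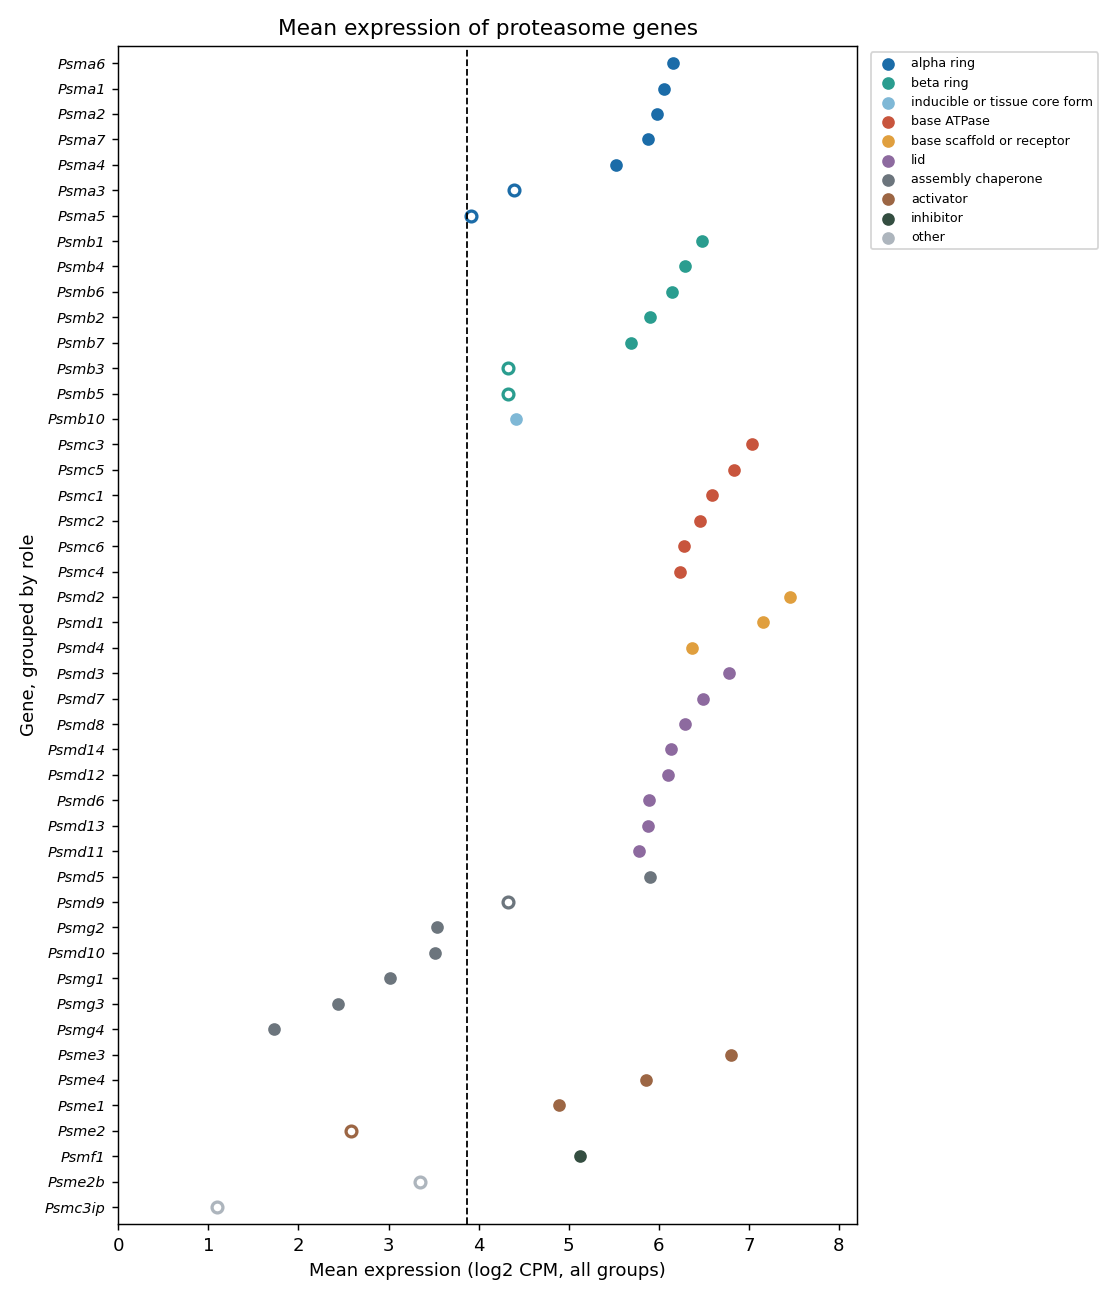
Mean expression of the 46 genes in log2 CPM over all groups (x axis), 1 point a gene, coloured by role. The dashed line is the median of all genes, 3.87, and open points are genes with under 90% of their 75-base windows unique to them. The plotted base and lid genes lie between 5.78 and 7.46, while the assembly chaperones spread from 1.73 to 5.90.

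The alpha ring genes fell into a high and a low set. In log2 CPM, Psma6 was at 6.16, Psma1 at 6.06, Psma2 at 5.98, Psma7 at 5.88 and Psma4 at 5.52. Psma3 and Psma5 were at 4.39 and 3.91, although each alpha subunit is present in the same number in every ring. Per coding kb the first 5 ranged from 5.88 to 6.60, against 4.78 for Psma3 and 4.38 for Psma5.

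The beta ring showed the same split. In log2 CPM, Psmb1 was at 6.48, Psmb4 at 6.29, Psmb6 at 6.15, Psmb2 at 5.90 and Psmb7 at 5.69. Psmb3 was at 4.33 and Psmb5, the chymotrypsin-like catalytic subunit, at 4.32. Per coding kb the first 5 ranged from 5.96 to 6.95, Psmb3 was at 5.03 and Psmb5 at 4.66. The remaining catalytic subunits, the caspase-like Psmb6 and the trypsin-like Psmb7, were at 6.64 and 5.96 on that scale.

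These 4 low genes were also the 4 core, base and lid genes that shared most sequence with other loci, a comparison made after their levels had been seen. A window as long as 1 read, 75 bases, was taken as unique when it occurred in the transcripts of no other annotated gene. Unique windows made up 63.2% in Psmb5, 64.8% in Psma5, 85.7% in Psma3 and 89.7% in Psmb3. The other 27 core, base and lid genes had at least 90% and levels of 5.52 to 7.46 log2 CPM. The order was not graded beyond that, for Psmd2, the highest gene, had 90.2% and lay just past Psmb3. The split also depended on the length used. Per coding kb the 4 genes were again the 4 lowest, but per kb of merged exon Psmb5, with its short exons, stood at 4.47, the median of the 31. On that scale Psmd11, with 94.5% unique windows, was at 3.11, below Psmb3 at 3.13 and Psma5 at 3.51. Among all 46 genes 8 (17.4%) had under 90% unique windows, compared with 13.6% of 14468 protein-coding genes, so sharing as such was near the background.

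**Figure D2:**
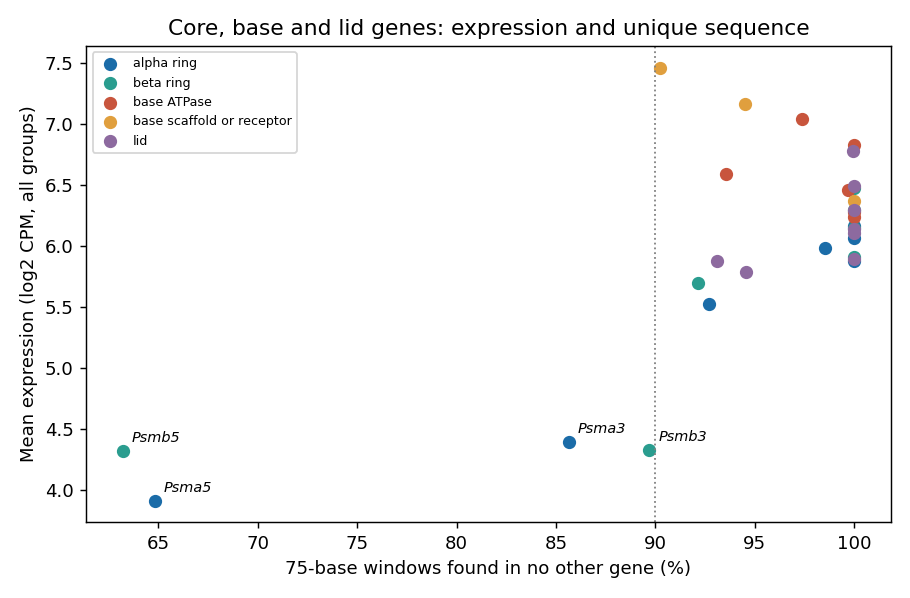
Share of 75-base windows found in no other gene (x axis, %) against mean expression (y axis, log2 CPM) for the 31 core, base and lid genes, 1 point a gene. The 4 named genes under the dotted 90% line lie between 3.91 and 4.39, and the other 27 lie at 5.52 or above.

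The shared windows of the 4 genes lay mainly in pseudogenes, most of them processed, that is, spliced copies inserted elsewhere in the genome. The tables list 11 such copies of 9 proteasome genes, 8 of these in the core, base or lid. The copy of Psma3, Gm13835 on chromosome 6 (GRCm38, chr6:31141979-31142663), had a level of 5.61 log2 CPM and stood above its own gene at 4.39, the only one of the 11 to do so. It had no unique window at all, and its bases matched the Psma3 coding sequence over 662 aligned positions with 0 differences. The stretches below come from the coding sequences of Psma3, Psma5 and Psmb5 and from a copy of each. They are examples in which a read of one could hardly be told from a read of the other. Capitals mark differing bases, and all stretches read along the transcript and hold 90 bases. They were picked as stretches with few, well separated differences, so their closeness follows from the choice and does not describe the whole gene. No gene with a copy and a higher level is shown for comparison.

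The first pair is Psma3, coding bases 104 to 193, and Gm13835 (chr6:31142554-31142643, minus strand).
Psma3: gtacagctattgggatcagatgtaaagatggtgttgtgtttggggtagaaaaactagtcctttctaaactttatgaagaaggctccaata
Gm13835: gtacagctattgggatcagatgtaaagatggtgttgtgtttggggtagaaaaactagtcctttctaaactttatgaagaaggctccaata

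The second pair is Psma5, coding bases 154 to 243, and Gm12989 (chr4:135716351-135716440, minus strand), with 1 difference.
Psma5: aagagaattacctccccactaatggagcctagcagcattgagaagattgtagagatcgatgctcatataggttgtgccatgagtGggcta
Gm12989: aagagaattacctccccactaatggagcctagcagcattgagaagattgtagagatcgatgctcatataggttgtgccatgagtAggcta

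The third pair is Psmb5, coding bases 292 to 381, and Gm3375 (chr7:3181385-3181474, plus strand), with 2 differences.
Psmb5: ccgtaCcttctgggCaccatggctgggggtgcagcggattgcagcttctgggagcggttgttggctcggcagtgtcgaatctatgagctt
Gm3375: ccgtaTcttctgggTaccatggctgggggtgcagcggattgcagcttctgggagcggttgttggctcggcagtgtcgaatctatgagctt

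Of the coding windows, 85.1% in Psma3, 41.1% in Psma5 and 40.7% in Psmb5 occurred in these copies. Most coding windows of Psma5 and Psmb5 thus did not occur in the copy shown. Identity over the alignment was 97.5% for Psma5 and Gm12989, and 98.9% for Psmb5 and Gm3375. Psma5 at 3.91 log2 CPM was close to Gm12989 at 3.88 and above its second copy Gm8394 at 3.33. Psmb5 at 4.32 had Gm3375 at 3.48, and Psmb3 at 4.33 had AC114990.1 at 2.59 and Gm4950 at 2.18. Unlike Gm13835, these copies had unique windows, 58.9% in Gm12989, 68.2% in Gm8394 and 59.1% in Gm3375. In AC114990.1 and Gm4950 such windows made up 68.0% and 87.4%. How reads that match several genes were counted is not given in the sources used here, and whether reads of these genes were assigned to their copies was not tested.

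As an arithmetic description, the level of each gene was also summed with those of its copies on the linear CPM scale. Copies made up 70.0% of the sum for Psma3, 62.2% for Psma5, 35.8% for Psmb5 and 34.4% for Psmb3. The sums were 6.13 log2 CPM for Psma3, 5.32 for Psma5, 4.96 for Psmb5 and 4.94 for Psmb3. Psma3 thereby came close to Psma6 (6.16), whereas the other 3 stayed the lowest of the core. The range across the alpha ring went from 2.25 to 0.85 and that across the beta ring from 2.16 to 1.54. Adding a copy can only raise a gene. The lowest genes of both rings had copies and the highest, Psma6 and Psmb1, had none, so narrowing was favoured by construction. Copies weighed less in the other genes with a copy, all of them above these 4. By construction this share is smaller where the gene itself is higher. Copies made up 26.5% of the sum for Psma4, 12.6% for Psmd2, 10.2% for Psma2, 9.92% for Psmc1 and 8.25% for Psme1.

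**Figure D3:**
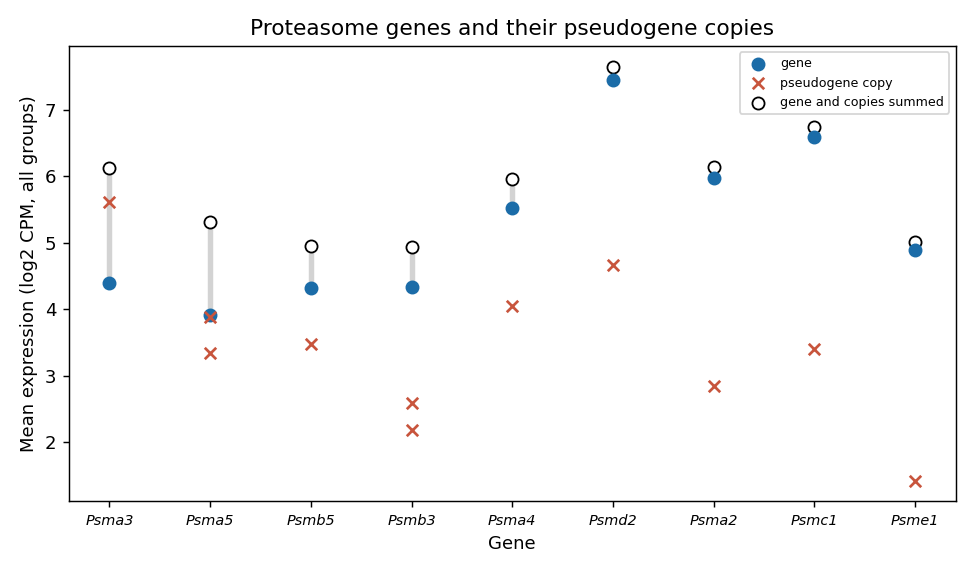
Mean expression (y axis, log2 CPM over all groups) of the 9 proteasome genes with a pseudogene copy in the tables. Filled points are the gene, crosses each copy, open points their sum on the linear scale, and grey bars join gene and sum. The bar is longest for Psma3, from 4.39 to 6.13.

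The base and lid genes with a Psm symbol were all at 5.78 log2 CPM or above, whereas Adrm1 and Sem1 lay below that. The ATPases, which thread the substrate into the core, ranked Psmc3 (7.04 log2 CPM), Psmc5 (6.83), Psmc1 (6.59), Psmc2 (6.46), Psmc6 (6.28) and Psmc4 (6.23). Per coding kb they lay between 5.91 and 6.60, a range of 0.69, but per kb of exon they spanned 4.13 to 6.35, a range of 2.22. The large scaffolds Psmd2 and Psmd1 had the highest levels of all 46 genes, 7.46 and 7.16, and the ubiquitin receptor Psmd4 was at 6.37. Divided by coding length, the 2 scaffolds came down to 6.01 and 5.64 and Psmd4 to 6.18.

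The lid genes spanned a similar range. In log2 CPM, Psmd3 was at 6.78, Psmd7 at 6.49, Psmd8 at 6.30, the deubiquitinase Psmd14 at 6.14 and Psmd12 at 6.11. Psmd6, Psmd13 and Psmd11 were at 5.89, 5.87 and 5.78. Per coding kb the lid ranged from 5.44 for Psmd11 to 6.54 for Psmd7, the partner of Psmd14, and per kb of exon from 3.11 to 5.31 for the same genes. Over the 17 base and lid genes with a Psm symbol the SD across genes was 0.34 log2 per coding kb. It was 0.87 over the 14 core genes and 0.47 over those 14 with their copies added. Per kb of exon the SDs of the 17 and the 14 genes were closer, 0.75 and 0.96. The 17 leave out Adrm1 and Sem1, at 0.97 and 3.00 per kb of exon, both below Psmd11, the lowest of the 17. An SD that includes them was not computed. Median levels per coding kb were 6.05 for base and lid and 6.35 for the core, and the order turned per kb of exon, at 4.68 and 4.28, and in log2 CPM, at 6.37 and 5.89.

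Some base and lid genes share sequence with an overlapping neighbour rather than a distant copy. Psmd13 shared 6.91% of its windows with Sirt3, Psmd1 3.10% with Gm21972 and 2.40% with Htr2b, and Psmc3 2.60% with Slc39a13. In the core, Psmb7 shared 7.83% with Nek6. All of these pairs but Psmd1 with Gm21972 lie on opposite strands. Whether counting used strand is not given, so reads of the pairs on opposite strands cannot be told apart here. An annotated gene lay antisense to 17 of the 46 (37.0%), compared with 44.4% of protein-coding genes.

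The 31 core, base and lid genes leave out Adrm1 and Sem1, at 0.97 and 3.00 per kb of exon. Adrm1 lay below Psma3, the lowest of the 31 at 2.43, so a range that includes it would be wider. Spreads with these genes were not computed. The 31 genes alone had an interquartile range of 1.08 log2 per kb of exon and a range of 3.92. The same interquartile range was 3.40 over 74 cytosolic ribosomal protein genes, 1.85 over 17 V-ATPase genes, which include forms restricted to other tissues, and 3.32 over all genes. The ribosomal list had a median of 80.8% unique windows, against 99.9% for the V-ATPase list and 100% for the proteasome genes, so the lists differ in shared sequence as well as in spread.

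The inducible forms of the catalytic subunits, which replace the constitutive forms in immune cells and under interferon, were not equally low. Psmb8 was at 0.87 log2 CPM and Psmb9 at 0.15, above 19.3% and 13.5% of all genes. Per kb of exon, Psmb5 stood 41.1-fold above Psmb8 and Psmb6 125-fold above Psmb9. Per coding kb these ratios were 11.4 and 58.7. The level of Psmb5 is itself uncertain, since it shares sequence with its copy Gm3375. With the copy added, Psmb5 was 17.8-fold above Psmb8 per coding kb, and per kb of unique exon, without the copy, 58.5-fold. Psmb10, the counterpart of Psmb7, was at 4.41 log2 CPM and had 100% unique windows. Psmb7 exceeded it by only 1.21-fold per kb of exon and by 2.40-fold per coding kb. The thymus and testis forms Psmb11 and Psma8 were not in the tables.

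Assembly chaperones with a Psm symbol, which help build the complex without staying in it, were mostly low. The core maturation factor Pomp carries another symbol and was at 5.81 log2 CPM. Psmg1 and Psmg2, which act as a pair on the alpha ring, were at 3.01 and 3.53 log2 CPM. Psmg3 and Psmg4, a second pair, were at 2.44 and 1.73. The base chaperones were Psmd5 at 5.90, Psmd9 at 4.32 and Psmd10 at 3.52. Per coding kb the 7 chaperones ranged from 3.17 for Psmg4 to 5.30 for Psmd5. All lay below the lowest base or lid gene with a Psm symbol, Psmd11 at 5.44. Psmd5 and Psmd9 exceeded the low core genes Psma5 and Psmb5 on that scale. Psmd9 shared 24.3% of its windows with the overlapping noncoding gene Gm26745, and Psmg3 shared 7.04% with Gm26938.

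The activators open the core without the regulatory particle. Psme3, which codes for the nuclear activator, was the highest at 6.80 log2 CPM, and per coding kb its 7.19 was above every other proteasome gene. That top rank held only per coding kb, for per kb of exon Psme3 stood at 5.24, below Psmc5 at 6.35. Psme4, the large single-chain activator, was at 5.86 log2 CPM but at 3.39 per coding kb. Psme1 was at 4.89 and Psme2 at 2.58, although their proteins form a joint ring, and Psme1 was 4.75-fold above Psme2 per coding kb. Psmf1, which binds the core and inhibits it in vitro, was at 5.13.

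Psme2 shared sequence with another gene in the tables. Psme2b on chromosome 11 is annotated as protein coding, and it was higher than Psme2, at 3.35 log2 CPM. Of the windows of Psme2b, 60.2% occurred in Psme2. The levels of Psme2 and Psme2b are thus uncertain, as are those of Psma3 and Gm13835. Psmc3ip met the symbol rule but codes for a meiotic recombination factor, not a proteasome part. It had the lowest level of the 46, 1.10 log2 CPM, and shared 16.0% of its windows with the overlapping Mlx.

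The 46 genes lay on 16 chromosomes, so they do not form a cluster as a whole. Chromosome 11 held 10 of them (21.7%), compared with 8.21% of protein-coding genes, and chromosome 14 held 5. A start site of a gene on the opposite strand lay within 1000 bp for 11 of the 46 (23.9%), compared with 14.7% of protein-coding genes. The closest of these pairs without overlap were Psmc2 with Dnajc2, 32 bp apart, and Psma2 with Mrpl32 and Psmc5 with Ftsj3, each 75 bp apart.

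RefSeq promoters, from 250 bases before to 50 after the start (GRCm38.p6), matched 39 of the 46. Psmb1, Psmb2, Psmb7, Psmc3, Psmd3, Psmd7 and Psmg2 had no entry. Of 7 motifs searched on both strands, the ETS core CCGGAAG stood furthest from its background, with 14 of 39 promoters (35.9%) against 16.1% of all 12050 promoters. The letters occurred in 9 of 14 base and lid promoters (64.3%) and in 0 of 11 core promoters, a division made after the genes with the motif had been listed. On the strand of the gene alone it was 4 of 14 and 0 of 11, and over the 39 promoters 23.1% against 9.04% of all. Outside core, base and lid, the matches on both strands were those of Psmg1, Psmg3, Psme3, Psme4 and of Psmc3ip, which codes for no proteasome part. The 7 base and lid stretches shown hold the motif or its reverse complement in capitals and 10 bases on either side, on the strand of the gene. Psmd11 and Psmd13 are not shown, since their matches did not lie before the RefSeq start with 10 bases on either side. The GENCODE starts differ for some genes. By them the stretches of Psmc1 and Psmd12 lie within the gene, and that of Psmd6 spans its start. The stretches lie at chr12:100110164-100110190 for Psmc1, chr5:21785181-21785207 for Psmc2, chr14:45329714-45329740 for Psmc6, chr11:107479501-107479527 for Psmd12, chr16:20651616-20651642 for Psmd2, chr3:95042723-95042749 for Psmd4, chr14:14120974-14121000 for Psmd6.
Psmc1: ggtggatgcaCTTCCGGcggtggcgat
Psmc2: ccagtgagcaCTTCCGGgatggggctc
Psmc6: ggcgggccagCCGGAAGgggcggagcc
Psmd12: gagcgggcgaCTTCCGGtgcgagtgac
Psmd2: ccgcagggcgCTTCCGGtctggaggac
Psmd4: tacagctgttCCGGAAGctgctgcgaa
Psmd6: agagacgcgaCCGGAAGtcagactggc

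Over the 39 promoters the 6 remaining motifs were nearer to their background. The CCAAT box was in 33.3% of the 39 promoters against 38.0% of all, but on the strand of the gene alone in 30.8% against 21.9%. The GC box GGGCGG was in 56.4% against 62.0%, and the E-box CACGTG in 10.3% against 9.73%. The TATA box TATAAA was in 7.69% against 7.34% and the NRF1 core GCGCATGC in 7.69% against 4.99%. The antioxidant response element core TGACNNNGC, letters bound by the factors that raise proteasome genes when the complex is inhibited, was in 15.4% against 14.5%, and on the strand of the gene alone in 7.69% against 7.84%. Its 6 promoters were those of Psmb5, Psmb6, Psmc6, Psmd9, Psmd12 and Psme4. Divided in the same way as the ETS core, 2 of these motifs also differed between the parts. The CCAAT box was in 6 of 11 core promoters (54.5%) and 4 of 14 base and lid promoters (28.6%). The GC box was in 5 of 11 (45.5%) and 10 of 14 (71.4%). Each other motif was in at most 2 promoters of either part. A match to the letters of a motif is a description and not a binding site.

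Other genes of the pathway were mostly well expressed. Of 24 listed ubiquitin, receptor, assembly and regulator genes, 23 were in the tables, and 20 of these lay above the all-gene median, with a median of 5.87 log2 CPM. The ubiquitin-activating enzyme Uba1 was highest at 8.71. Nfe2l1, which codes for a transcription factor of proteasome genes, was at 8.49 and the core maturation factor Pomp at 5.81. The lowest was Rps27a, a ubiquitin fusion gene, at 0.83, and it had 76.5% unique windows.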

How the data were processed

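RNA-seq was performed by the authors on vHPC of 12 libraries (3 per group, each from 2 animals) as stranded 75-base single-end reads. Per the labels and the methods of the study, reads were filtered for quality, aligned with STAR to GRCm38 (mm10), counted with featureCounts and fitted with limma-voom. Tool versions and the handling of low genes and of reads matching more than 1 gene were not given in the sources used here. Both deposited tables hold the authors' mean log2 CPM per gene, which was used, and the authors' own comparisons between VEH and CORT (log2 fold changes, standard errors, t, F, degrees of freedom and p-values), which were not used. No value per library is in them, so the tests planned for CORT within each genotype were not run, and no interval or replicate error can be given. Depth is known only as the approximate number of reads per sample that the study gives.

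Members, gene lists and roles were chosen with earlier results of these data known. Every gene found by the symbol rule was accounted for and named with its level, as were Psmb8 and Psmb9 and the highest and lowest gene of the pathway list. Genes were matched by identifier to the GENCODE annotation of GRCm38 (17551 of 17564, 13 without a match) for merged exon, longest transcript and coding lengths. All 75-base windows of a gene's transcripts were looked up in those of all other annotated genes on either strand, a step tested on simulated transcripts with planted shared stretches. Copies are pseudogenes at another locus that share windows and are in the tables. Coding sequences were aligned locally, and 1 sequence comparison is not reported here. The window, copy and alignment steps, and the division of the motif counts into core and cap, were added after the levels or motif matches had been seen. Alternatives were other lengths, no length, unique exon parts, added copies, a shorter promoter and 1 strand. Python 3.11.15, pandas 2.3.3, numpy 2.4.6 and Biopython 1.88 were used.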

Additional observations from a re-analysis of the deposited data

How the results depend on the processing

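No paired analysis was possible because the tables hold no values per library. For the same reason the alternatives planned for comparisons between groups (pseudocount, filter, leaving out a replicate) were not run, and the planned protein identities were not run. No error can be given, so shifts were compared with the spread across genes.

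Values per kb depended on the length used. The median over all 46 genes was 4.27 per kb of exon and 5.90 with no division by length. Per coding kb the medians were 6.31 for the alpha ring (4.26 per kb of exon), 6.63 for the beta ring (4.47), 6.01 for base scaffolds and receptors (4.88), 5.91 for the lid (4.55), 3.89 for assembly chaperones (2.59) and 6.11 for the 31 core, base and lid genes (4.47). With the longest transcript they were 5.50 for the beta ring, 5.52 for base scaffolds and receptors and 5.28 for the lid. The order of the alpha ring and the lid, and of the core and the base with lid, reversed with coding length. The SD across the base and lid genes with a Psm symbol was 0.34 per coding kb and 0.75 per kb of exon.

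The log2 difference between Psmb5 and Psmb8 was 5.36 per kb of exon, 4.53 with the longest transcript, 3.51 with coding length and 3.45 with no length. For Psmb6 and Psmb9 it was 6.96, 7.57, 5.87 and 5.99. For Psmb7 and Psmb10 it was 0.28 per kb of exon, 1.26 with coding length and 1.28 with no length. The sign held in each case. The spread of the 31 genes was 1.08 as an interquartile range and 3.92 as a range. The unique part of the exons, chosen after seeing the data, moved none of 12 values by more than the spread across genes, and adding copies, also chosen then, took the range of the 31 genes from 3.54 to 2.72. On the strand of the gene alone, promoter shares were 33.3% for the GC box, 23.1% for the ETS core (35.9% on both strands) and 7.69% for the antioxidant response element core (15.4%), and the CCAAT box turned from below to above its background.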
